A study of Homo sapiens with 4 samples.

Results

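Chromosome 19 carries 7 clusters of zinc finger genes that were followed here by position: every 40 kb bin of the lamin B1 tables that overlapped one of 7 fixed windows of hg19 was taken, whatever its value. This gave 316 of the 71569 bins with a value in both cell lines, and the same 316 bins in LNCaP and in VCaP. Cluster 1 runs on chromosome 19 from 9200001 to 9950000 (19 bins), cluster 2 from 11700001 to 12600000 (23 bins) and cluster 3 from 19800001 to 24400000 (115 bins), all on the short arm. On the long arm, cluster 4 runs from 36700001 to 38400000 (43 bins), cluster 5 from 44300001 to 45000000 (18 bins), cluster 6 from 52400001 to 54000000 (40 bins) and cluster 7 from 56800001 to 59100000 (58 bins). The other 1085 bins of chromosome 19 serve for comparison.

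The study mapped contact with the nuclear lamina, the protein mesh under the inner nuclear membrane, by chromatin immunoprecipitation of lamin B1 and sequencing. LNCaP, an established line labelled prostate adenocarcinoma, and VCaP, an established line labelled bone metastatic prostate cancer, each have 1 lamin B1 library and 1 input library made without antibody. Both lines grew untreated in culture with serum, LNCaP in RPMI and VCaP in DMEM F12, and were fixed with formaldehyde before the chromatin was sheared. A value is the log2 ratio of lamin B1 over input in a bin, and each bin also has the authors' state, associated (AD) or not (iAD), from a hidden Markov model. With 1 library per group nothing here can be tested against replicates and no p-value is given. The noise SD stands beside the values instead: it was 0.15 for a bin in LNCaP, 0.23 in VCaP and 0.27 for the difference of the lines, and it covers these libraries only. The depth of the libraries is unknown, since the tables hold no read counts.

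Zinc finger genes of these clusters mostly encode proteins with a row of DNA-binding C2H2 fingers behind a KRAB domain, a stretch that recruits the corepressor TRIM28. Through TRIM28 such proteins bring repressive histone methylation to transposable elements. ZNF91 and ZNF93, of the large cluster beside the centromere, are known for holding down primate retrotransposons, and the long arm clusters include the imprinted gene PEG3. The clusters grew by tandem duplication and are themselves rich in heterochromatin marks, although chromosome 19 as a whole is dense in genes, and gene-dense chromatin usually lies away from the lamina.

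In the RefSeq annotation of GRCh38.p14, 269 of the 1451 protein-coding genes of chromosome 19 have a zinc finger symbol (ZNF, ZFP, ZIM, ZSCAN, ZBTB, MZF1 or PEG3), and 228 of them stand in 7 runs of at least 10 such genes with no more than 3 other coding genes between neighbours. In chromosome order these are ZNF317 to ZNF846 (12 genes), ZNF627 to ZNF791 (24), ZNF101 to ZNF254 (37), ZNF565 to ZNF573 (29), ZNF283 to ZNF180 (20), ZNF577 to ZNF331 (40) and ZNF787 to MZF1 (66). The first run also holds 3 olfactory receptor genes and the other runs hold none. Coordinates of GRCh38 were not carried over to hg19, so no gene was placed in a bin, and the runs name the gene content of the clusters only by their order.

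Genes of a run share stretches of promoter sequence to differing degrees. The 250 bases before the start of transcription were at hand for 195 of the 228 genes, with a median of 15 CpG dinucleotides (interquartile range 11 to 20), against a median of 17 (6 to 26) over 15843 coding genes. The run from ZNF101 to ZNF254 had the lowest median, 8, and the runs ZNF565 to ZNF573 and ZNF577 to ZNF331 the highest, 18. Each run had its own most shared stretch of 12 bases, counted on both strands and picked as the most frequent one, which is a description and not a binding site. The share of promoters that held it ran from 19.3% in the run ZNF787 to MZF1 to 62.1% in the run ZNF101 to ZNF254. In the run from ZNF101 to ZNF254, CTGTCACTCAGG or its reverse complement lay in 18 of 29 promoters (62.1%). It also lay in 5 of 23 promoters of the run ZNF627 to ZNF791 and in none of the other 5 runs. Of all 15843 coding promoters 29 held it (0.183%), those of these 2 runs included. In the run from ZNF283 to ZNF180, GAATTCTGGGAA lay in 9 of 16 promoters (56.2%) and in none of the other runs. Of all coding promoters 13 held it (0.0821%), the 9 of this run included. The promoters of the middle genes of these runs are shown because the runs correspond in order to cluster 3, with the highest mean in LNCaP, and to cluster 5, with the lowest mean in both lines. Within 2 noise SD, cluster 3 was not resolved from cluster 1 in LNCaP, nor cluster 5 from cluster 2 in VCaP. Both sequences are from RefSeq, GRCh38.p14, plus strand of chromosome 19, 5′ to 3′, with the shared 12 bases in capitals.
ZNF429: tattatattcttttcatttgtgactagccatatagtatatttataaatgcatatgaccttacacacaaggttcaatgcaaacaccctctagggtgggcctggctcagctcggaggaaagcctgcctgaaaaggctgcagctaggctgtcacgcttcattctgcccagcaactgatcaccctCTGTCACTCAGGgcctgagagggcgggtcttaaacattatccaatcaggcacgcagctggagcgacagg
ZNF224: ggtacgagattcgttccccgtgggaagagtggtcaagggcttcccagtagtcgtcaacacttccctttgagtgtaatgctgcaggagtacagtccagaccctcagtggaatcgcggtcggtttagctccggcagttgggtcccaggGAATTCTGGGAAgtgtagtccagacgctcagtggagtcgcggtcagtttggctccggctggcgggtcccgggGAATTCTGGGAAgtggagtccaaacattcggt
ZNF224 holds the stretch 2 times and ZNF429 holds its own once. A 40 kb bin is far larger than a promoter, so the lamin values say nothing about these sequences one by one.

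In LNCaP the clusters divided by chromosome arm, with the means of all 3 short arm clusters above input and those of 3 of the 4 long arm clusters below it. In VCaP all 7 clusters had a mean above 0. Both lines had their lowest mean in cluster 5, although in VCaP it lay only 0.01 below cluster 2 (noise SD 0.12).

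Cluster 1 had a mean log2 enrichment of 0.49 in LNCaP (range over its bins 0.16 to 0.87) and 0.58 in VCaP (0.15 to 0.83). In cluster 2 the mean was 0.19 in LNCaP (0.07 to 0.33) and 0.28 in VCaP (0.01 to 0.78). For cluster 3 it was 0.53 in LNCaP (-0.30 to 1.10) and 0.47 in VCaP (-0.32 to 1.28). These short arm clusters thus had much the same mean in both lines, and their ranges overlapped throughout. On the long arm, cluster 4 had a mean of 0.07 in LNCaP (-0.34 to 0.96) and 0.46 in VCaP (0.09 to 1.17). Cluster 5 had a mean of -0.56 in LNCaP (-0.78 to -0.35) and 0.27 in VCaP (0.05 to 0.92), so the lines did not overlap in any of its 18 bins. Cluster 6 had -0.14 in LNCaP (-0.45 to 0.31) and 0.29 in VCaP (-0.75 to 0.98). At the end of the long arm, cluster 7 had -0.10 in LNCaP (-0.51 to 0.36) and 0.58 in VCaP (-0.12 to 1.19).

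**Figure D1:**
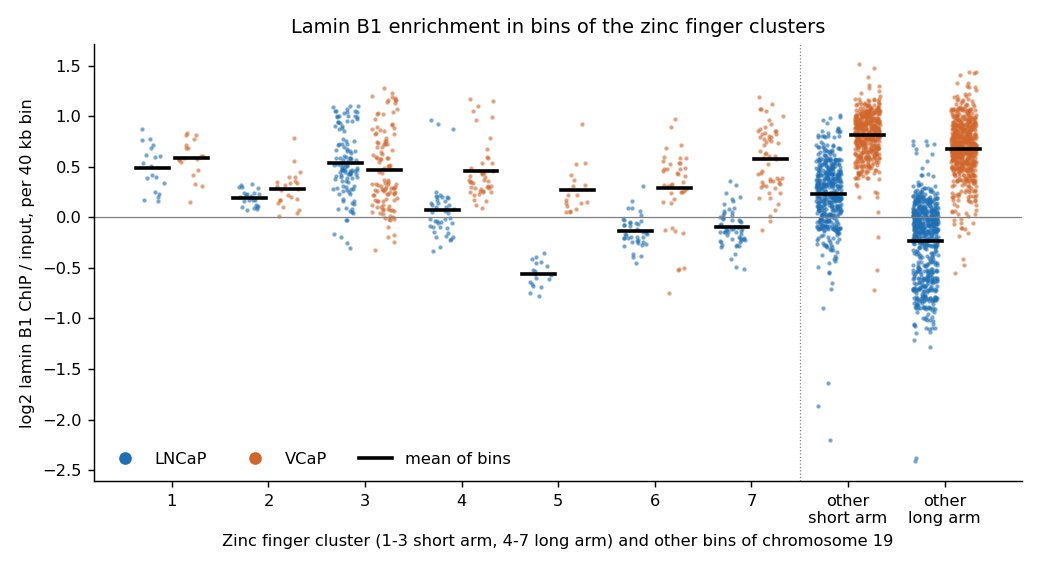
Log2 lamin B1 over input (vertical axis) of each 40 kb bin in clusters 1 to 7 and in the other bins of the short and long arm, for LNCaP (blue) and VCaP (orange), with black bars at the means. LNCaP falls from cluster 3 (0.53) to cluster 5 (-0.56), while every VCaP mean lies between 0.27 and 0.58 and below the other bins of its arm (0.81 and 0.68).

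Ranked by mean, LNCaP placed cluster 3 first, then clusters 1, 2, 4, 7, 6 and 5. Clusters 3 and 1 (gap 0.05, noise SD 0.06), 2 and 4 (0.13, 0.07) and 7 and 6 (0.04, 0.05) lay within 2 noise SD of each other, and the other 3 steps exceeded it. In VCaP the order was 1, 7, 3, 4, 6, 2 and 5. Only the step from cluster 4 to cluster 6 (0.172, noise SD 0.086) exceeded 2 noise SD there, barely, and the VCaP order between other neighbours is not resolved. In both orders the mean of cluster 4 includes a high entry, described further on. Without its 3 bins that mean was 0.00 in LNCaP and 0.41 in VCaP. The steps from 2 to 4 and from 4 to 7 in LNCaP, and from 4 to 6 in VCaP, therefore depend on that entry. With a single library pair per line, neither order was tested.

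Set against the genome, clusters 1 and 3 stood high in LNCaP. The top 25% of all bins of the genome in each line took in 14 of 19 bins of cluster 1 and 86 of 115 bins of cluster 3 in LNCaP. It took in 2 of 23 bins of cluster 2, 3 of 43 of cluster 4, 2 of 58 of cluster 7 and none of clusters 5 and 6. In VCaP it held 14 bins of cluster 1, 2 of cluster 2, 50 of cluster 3, 12 of cluster 4, 3 of cluster 5, 11 of cluster 6 and 33 of cluster 7. Over all clusters that is 125 of 316 bins (39.6%), against 907 of 1085 bins (83.6%) of the rest of chromosome 19 in VCaP. In LNCaP it was the other way round, with 107 of 316 cluster bins (33.9%) against 213 of 1085 (19.6%).

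The deposited states divide the clusters by arm in LNCaP, as they do the chromosome around them: a single non-associated run of 556 bins reached from 36880001 to the chromosome end, and the other bins averaged 0.23 on the short arm and -0.24 on the long arm. All bins of clusters 1 and 2 and 110 of 115 bins of cluster 3 were associated, followed by 3 of 43 in cluster 4 and none in clusters 5, 6 and 7. The total was 155 of 316 bins (49.1%), against 37.9% of the genome and 30% of the rest of chromosome 19. In VCaP clusters 1, 2 and 4 were associated throughout, as were 101 bins of cluster 3, 54 of 58 in cluster 7, 30 of 40 in cluster 6 and 5 of 18 in cluster 5. That makes 275 of 316 bins (87%), against 44.4% of the genome and 98% of the rest of chromosome 19.

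Of the cluster bins, 134 (42.4%) were associated only in VCaP, where the genome has 23.8% and the rest of chromosome 19 has 67.9%. Bins associated in both lines numbered 141 (44.6%, genome 20.6%), of which 19, 23 and 96 lay in clusters 1, 2 and 3 and 3 in cluster 4. In neither line associated were 27 bins (8.54%, genome 38.4%, rest of chromosome 19 2.03%), of which 13 lay in cluster 5, 10 in cluster 6 and 4 in cluster 7. The 14 bins associated only in LNCaP (4.43%, genome 17.2%) formed 1 run in cluster 3, and the rest of chromosome 19 had none.

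Whether the lines differed was judged cluster by cluster. VCaP was higher in every bin of clusters 4, 5 and 7 and in 35 of 40 bins of cluster 6. The VCaP minus LNCaP difference of means was 0.39 in cluster 4, 0.83 in cluster 5, 0.42 in cluster 6 and 0.68 in cluster 7, with noise SDs of 0.07, 0.11, 0.07 and 0.06. Each of these lay beyond 2 noise SD. On the short arm it was 0.10 in cluster 1, 0.09 in cluster 2 and -0.07 in cluster 3, with noise SDs of 0.11, 0.10 and 0.04, and none lay beyond 2 noise SD. Single bins passed the threshold of 0.54, which is 2 noise SD of a bin, with VCaP higher in 82 of 316 cases (25.9%, genome 19%) and with LNCaP higher in none (genome 7.81%). All 18 bins of cluster 5 were among the former, as were 32 of cluster 7, 18 of cluster 6, 9 of cluster 4, 4 of cluster 3 and 1 of cluster 2. In the rest of chromosome 19 the same threshold was passed with VCaP higher in 743 of 1085 bins (68.5%). LNCaP was higher in none there either, so the clusters held a smaller share of such bins than the chromosome around them.

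These differences depend on the zero point, which the deposited ratios do not fix. Over the whole genome the median bin was at 0.06 in LNCaP and at 0.19 in VCaP. When the genome median of each line was taken as 0, the difference became -0.04 in cluster 1, -0.05 in cluster 2, -0.20 in cluster 3, 0.26 in cluster 4, 0.70 in cluster 5, 0.29 in cluster 6 and 0.55 in cluster 7. Cluster 3 was then lower in VCaP by more than 2 noise SD, and clusters 4 to 7 remained higher. The rest of chromosome 19 differed more, with a mean VCaP minus LNCaP difference of 0.77, so the clusters, at 0.27 over all their bins, differed less between the lines than the chromosome around them. Measured from the median of the rest of the chromosome, clusters 1 to 4 and 6 were lower in VCaP than in LNCaP, while cluster 5 (0.084, noise SD 0.11) and cluster 7 (-0.068, noise SD 0.06) lay within 2 noise SD of no difference.

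Within chromosome 19 the clusters stood out in opposite directions. In VCaP their bins had a mean of 0.44 and the other bins a mean of 0.74, a difference of -0.29 (noise SD 0.02). The sign was the same on the short arm (0.45 against 0.81) and on the long arm (0.44 against 0.68), and with each cluster left out in turn the difference lay between -0.32 and -0.27. In LNCaP the cluster bins had a mean of 0.18 and the other bins a mean of -0.04, a difference of 0.22 (noise SD 0.02), with 0.48 against 0.23 on the short arm and -0.12 against -0.24 on the long arm. Without the 115 bins of cluster 3 the LNCaP difference over both arms was 0.015, but the cluster bins left are then mostly on the long arm and the other bins are not. Within the short arm, clusters 1 and 2 alone lay 0.10 above the other bins (0.33 against 0.23, noise SD 0.04), and the long arm clusters, without the 3 bins of the high entry of cluster 4 described further on, lay 0.10 above theirs (-0.14 against -0.24, noise SD 0.02). This long arm excess lay in the means only. With the high entry kept, the LNCaP medians there were -0.117 in the cluster bins and -0.126 in the other bins. Above 0 were 27% of these cluster bins and 30.6% of the other bins.

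The nearest comparison is with the 1 Mb on each side. In VCaP all 7 clusters lay below their flanks, by 0.26 in cluster 1 (0.58 against 0.85), 0.42 in cluster 2 (0.28 against 0.70), 0.37 in cluster 3 (0.47 against 0.84), 0.31 in cluster 4 (0.46 against 0.77), 0.42 in cluster 5 (0.27 against 0.68), 0.37 in cluster 6 (0.29 against 0.66) and 0.17 in cluster 7 (0.58 against 0.75). The first 6 differences exceeded 2 noise SD, which ran from 0.08 to 0.11 for 1 SD, and that of cluster 7 (noise SD 0.09) did not. LNCaP had 4 clusters above and 3 below their flanks. Cluster 3 was above by 0.21 (0.53 against 0.32, noise SD 0.05), cluster 4 above by 0.15 (0.07 against -0.09, noise SD 0.05) and cluster 7 below (-0.10 against 0.05, noise SD 0.06), and the other 4 lay within 2 noise SD. Cluster 4 lost this excess without those 3 bins and was then 0.09 above its flanks (noise SD 0.06). After cluster 3 only 6 flank bins precede the centromere gap, and cluster 7 has flank bins on 1 side only, because the chromosome ends there.

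**Figure D2:**
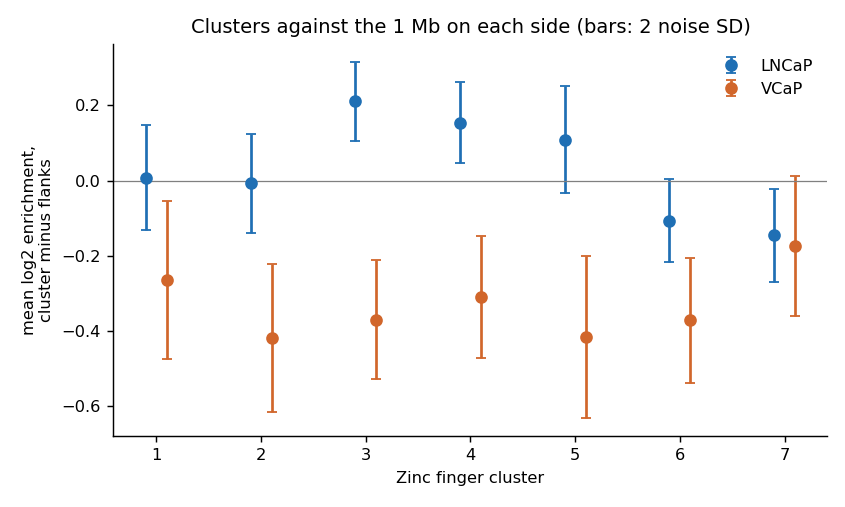
Mean log2 enrichment of each cluster minus that of the bins within 1 Mb on either side (vertical axis), for LNCaP (blue) and VCaP (orange), with bars of 2 noise SD. All 7 VCaP points lie below 0, from -0.42 to -0.17, while LNCaP runs from -0.15 to 0.21.

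The bins of chromosome 19 that left the associated state in VCaP fell mostly in the clusters. VCaP had 63 such bins on the chromosome, in 9 runs, and 41 of them (65.1%) lay in the clusters, which make up 22.6% of the chromosome's bins. Of the 9 runs, 5 touched a cluster: from 21240001 to 21800000 in cluster 3 (14 bins, mean 0.01), from 44400001 to 44920000 in cluster 5 (13 bins, 0.16), from 52360001 to 52680000 at the start of cluster 6 (8 bins, -0.30), from 53880001 to 54120000 across its end (6 bins, -0.08) and from 58280001 to 58440000 in cluster 7 (4 bins, 0.01). The other 4 runs had 4 or 5 bins each. Bins of a run share averaged values and are no separate observations.

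At the edges the level was taken as the mean of 5 bins inside minus that of 5 bins outside. In VCaP the inside was lower at 11 of 13 edges, and 4 of these steps exceeded 2 noise SD: -0.60 at the start of cluster 1, -0.60 at the start of cluster 3, -0.93 at the start of cluster 6 and -0.50 at the start of cluster 7 (noise SD 0.25). Placing each value 1 bin upstream, to allow for the trailing mean, put 7 VCaP steps beyond 2 noise SD, adding the starts of clusters 2 (-0.56) and 5 (-0.58) and the end of cluster 6 (-0.55). In LNCaP the inside was lower at 7 of 13 edges and 2 steps exceeded 2 noise SD (noise SD 0.16), -0.85 at the end of cluster 3 and 0.63 at the start of cluster 4. With 10 bins on each side these 2 steps were -0.46 and 0.26, and 1 bin upstream the start of cluster 6 (-0.38) joined them. The 5 inside bins at the start of cluster 4 include the 3 bins of its high entry. The first bins of the cluster, before that entry, had -0.34 and -0.20 in LNCaP. In VCaP the start and the end of cluster 4 were higher inside (0.13 each), and with 10 bins they were lower inside (-0.34 and -0.16). The end of cluster 7 lies at the chromosome end and gave no step.

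Cluster 3, the family that includes ZNF91 and ZNF43 by RefSeq order, is the longest of the 7. Its 5 pieces of 23 bins had LNCaP means of 0.42, 0.40, 0.70, 0.89 and 0.26 from the short arm tip towards the centromere, and VCaP means of 0.33, 0.22, 0.56, 0.94 and 0.28. Both lines rose to the same stretch. From 22080001 to 23400000, all 33 adjacent bins were in the top 25% of the genome in both lines, as are 8.5% of all bins, and LNCaP averaged 0.93 (0.57 to 1.10) and VCaP 0.95 (0.58 to 1.28). It was the longest such stretch in any cluster, and the next, in cluster 1, had 6 bins. LNCaP was highest in it from 22680001 to 22720000 (1.10, VCaP 1.19) and VCaP from 22760001 to 22800000 (1.28, LNCaP 1.04). This stretch was picked out by its values, so it is given as a description.

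The lines parted at 2 places in cluster 3. Like the other runs named here, these were picked because the states differ, and the states come from the same values, so the sign of each difference was set by the choice. From 21240001 to 21800000 LNCaP was associated with a mean of 0.34 and VCaP was not, with a mean of 0.01, a difference of -0.34 over 14 bins. VCaP had its lowest bin of the cluster there, from 21360001 to 21400000 (-0.32, LNCaP 0.16). At the centromeric end, from 24200001 to 24400000, LNCaP left the associated state over 5 bins (mean -0.14) that VCaP kept in it (mean 0.35), a difference of 0.50. The bin with the largest difference in the cluster, from 24240001 to 24280000, had -0.26 in LNCaP and 0.58 in VCaP, and the next bin was the lowest of LNCaP (-0.30, VCaP 0.12). These deposited values behave as trailing means of 3 entries. With the mean undone, the first of these bins had -0.22 in LNCaP and 0.29 in VCaP. In the second, VCaP was then the lower line, with -0.36 against -0.27 in LNCaP.

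**Figure D3:**
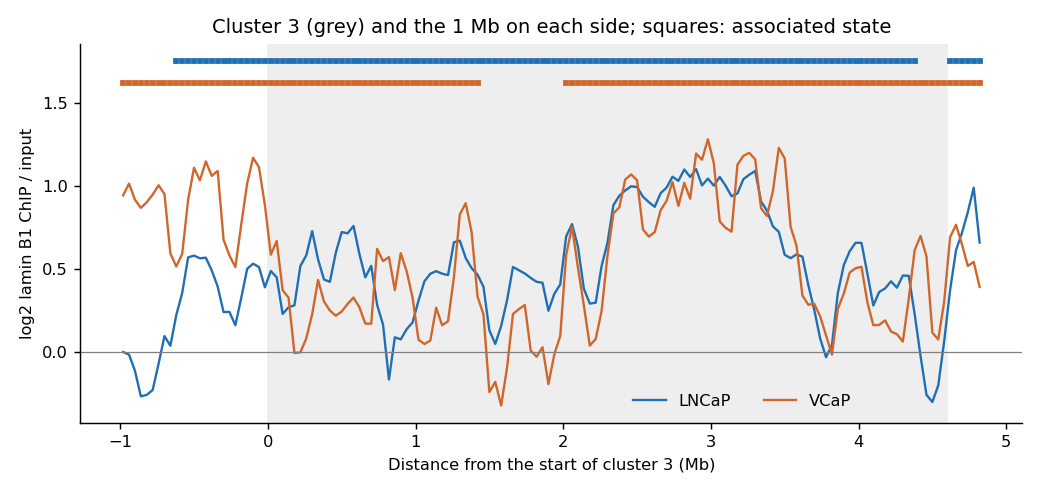
Log2 lamin B1 over input (vertical axis) in LNCaP (blue) and VCaP (orange) against the distance from the start of cluster 3 in Mb (grey, with up to 1 Mb on each side), with squares at the top for bins in the associated state. Both lines reach about the same plateau (means 0.93 and 0.95), and before the cluster VCaP lies well above LNCaP.

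Cluster 1, whose run in RefSeq order includes ZNF266 and ZNF560 beside olfactory receptor genes, followed the same course in both lines. They shared their highest bin, from 9360001 to 9400000 (LNCaP 0.87, VCaP 0.83), and both dipped in the bin from 9480001 to 9520000 (0.17 and 0.15). Towards its end VCaP read higher but within 2 noise SD: over the last 6 bins LNCaP averaged 0.29 and VCaP 0.57 (difference 0.27, noise SD 0.19). LNCaP was lowest in the last bin, from 9920001 (0.16, VCaP 0.58), and the lines differed most in the bin before it (0.40 and 0.82). Cluster 2, with ZNF44 and ZNF136 in its run, was flat in LNCaP, with an SD over bins of 0.08, and both lines had their lowest bin from 11920001 to 11960000 (0.07 and 0.01). VCaP came into it from above, with 0.78 in the first bin, from 11680001 to 11720000, where LNCaP had 0.17 and the lines differed most. That bin begins before the window, and with the trailing mean undone it had 0.51 in VCaP and -0.10 in LNCaP. LNCaP was highest from 12480001 to 12520000 (0.33, VCaP 0.10). Both clusters lay inside single associated domains, in LNCaP from 7440001 to 12680000 (131 bins) and in VCaP from 280001 to 21240000.

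Cluster 4, with ZNF568 and ZNF382 in its run, held a bin that stood out in both lines. From 36760001 to 36880000 LNCaP read 0.96, 0.88 and 0.92 in 3 successive bins between neighbours of -0.20 and -0.16, and VCaP read 1.17, 1.15 and 0.99. Deposited values average each entry with the preceding 2, and a single high entry then leaves 3 similar values in a row. With the average undone, the bin from 36760001 to 36800000 had a log2 value of 3.16 in LNCaP and 2.31 in VCaP, and the next 2 bins had -0.41 and 0.01 in LNCaP. No bin of the genome was higher in LNCaP, and 37 of the 71569 bins were higher in VCaP. This is an isolated entry in a single library pair per line, with no read counts at hand. Whether it reflects contact with the lamina was not tested. The 3 bins that hold this entry are the only associated bins of the long arm clusters in LNCaP. Without them cluster 4 had a mean of 0.00 in LNCaP (19 of 40 bins above 0) and 0.41 in VCaP, and the difference between the lines was 0.41. The bin with the largest difference, from 37760001 to 37800000, had 0.20 in LNCaP and 1.10 in VCaP. It too was followed by similar values, and with the average undone it had 1.05 in LNCaP and 2.17 in VCaP. The values given without the high entry still include this second one. LNCaP was lowest from 36680001 to 36720000 (-0.34, VCaP 0.44) and VCaP from 37080001 to 37120000 (0.09, LNCaP -0.22). After the high bins VCaP stayed associated over the other 38 bins, from 36880001 to 38400000, with a mean of 0.40 against 0.02 in LNCaP.

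Cluster 5, with ZNF224, ZNF226 and ZNF45 in its run, was low throughout in LNCaP, and so were its flanks (-0.67). In VCaP it fell from 0.92 in its first bin, from 44280001 to 44320000, to 0.05 in the bin from 44800001 to 44840000 (LNCaP -0.75). LNCaP was lowest in the next bin (-0.78) and highest from 44560001 to 44600000 (-0.35, VCaP 0.22). The lines differed most in the first bin of the cluster (1.52), where LNCaP had -0.60. That bin begins before the window, and with the average undone it had 0.90 in VCaP and -0.58 in LNCaP. With 3 bins trimmed at each edge, the VCaP mean of cluster 5 was 0.16 and the difference between the lines 0.72. Cluster 6, with ZNF83 and ZNF528 in its run, opened with a trough in both lines: the lowest bin was from 52520001 to 52560000 in VCaP (-0.75, LNCaP -0.39) and from 52560001 to 52600000 in LNCaP (-0.45, VCaP -0.52). With the average undone, the first of these bins had -0.80 in VCaP and -0.46 in LNCaP, and the second 0.03 in VCaP and -0.35 in LNCaP. In the deposited values, cluster 6 alone of the long arm clusters had bins with VCaP below LNCaP, 5 in all. Further in, from 52680001 to 53880000, VCaP was associated over 30 bins with a mean of 0.46 and LNCaP had -0.10. Both lines peaked in the bin from 53000001 to 53040000 (LNCaP 0.31, VCaP 0.98), and they differed most from 53560001 to 53600000 (-0.04 and 0.72).

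Cluster 7, whose run includes PEG3, ZNF274 and, at its end, MZF1, was associated in VCaP from its start to 58280000 (37 bins, mean 0.58, LNCaP -0.08) and again from 58440001 to the chromosome end (17 bins, 0.72, LNCaP -0.08). ZNF274 is known to direct histone methylation to zinc finger genes. Between these runs both lines had their lowest bin of the cluster, from 58360001 to 58400000 (LNCaP -0.51, VCaP -0.12). VCaP was highest from 57560001 to 57600000 (1.19, LNCaP 0.05), which is also the bin with the largest difference (1.14). LNCaP was highest from 58600001 to 58640000 (0.36), where VCaP had 1.12.

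**Figure D4:**
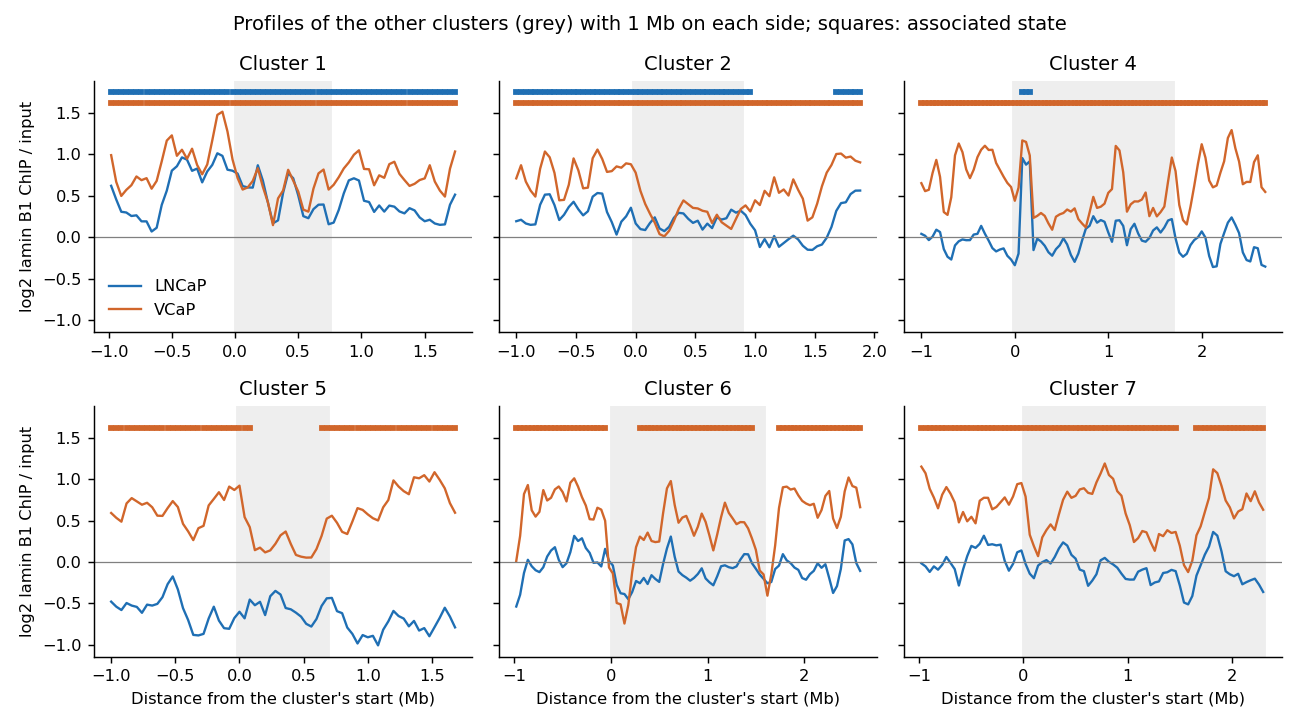
Log2 lamin B1 over input (vertical axis) in LNCaP (blue) and VCaP (orange) against the distance from each cluster's start in Mb, for clusters 1, 2, 4, 5, 6 and 7 (grey) with up to 1 Mb on each side and squares at the top for the associated state. The VCaP curve drops by more than 2 noise SD on entering clusters 1, 6 and 7, the lines share the narrow peak of cluster 4, and in cluster 5 they do not meet in any bin.

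Shape and level did not always go together. Across the bins of a cluster, LNCaP and VCaP had a Pearson r of 0.69 in cluster 1 (n = 19 bins), 0.01 in cluster 2 (23), 0.70 in cluster 3 (115), 0.72 in cluster 4 (43), 0.21 in cluster 5 (18), 0.74 in cluster 6 (40) and 0.54 in cluster 7 (58). The rest of chromosome 19 had 0.55 on the short arm and 0.16 on the long arm, and the genome 0.28. In cluster 4 the high entry raised r, which was 0.47 without its 3 bins. Cluster 6 thus had a similar profile in the lines at levels 0.42 apart. In cluster 7, at levels 0.68 apart, the profiles were alike only in part (r 0.54). Neighbouring bins share averaged entries and all bins of a line share 2 libraries, so these are descriptions. With the average undone, r in clusters 1 to 7 was 0.65, 0.17, 0.59, 0.77, 0.26, 0.69 and 0.52. Cluster 4 without the 3 bins of its high entry then had 0.69.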

How the data were processed

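Lamin B1 ChIP-seq of LNCaP and VCaP was used as deposited, with 1 ChIP and 1 input library per line. The deposited values are log2 enrichment of ChIP over input per entry, most of them 40 kb wide. The authors' state (AD or iAD, a label and no number) comes from a hidden Markov model, per the name of the deposited table. The build is hg19 and the tool STAR is named, with no role, per the submitters' processing notes; scaling, filters and model settings are not given in the sources used here.

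The deposited log2 values behave as a trailing mean of 3 entries: in entries over 100 kb wide, mostly assembly gaps, the median absolute value was 0.17 in LNCaP and 0.31 in VCaP, and 0.01 in both with the mean undone. Values therefore lie about 1 bin downstream and neighbours are not independent.

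Bins overlapping a window by any length were averaged with equal weight. Noise of a bin is the median absolute difference of bins 3 apart, times 1.4826, divided by the square root of 2; for a difference of lines the 2 noises were added in quadrature. A mean counts 1 separate value per 3 bins. Levels also vary over longer stretches, so the noise SD of a mean may be too small. Differences beyond 2 noise SD are named as such. Flank bins lie within 1 Mb, outside all windows, in entries up to 100 kb wide. Named are all clusters, in each the highest and lowest bin per line and the bin with the largest difference, and runs of at least 5 bins associated in 1 line only; other stretches were chosen after their values were seen. Windows, gene lists and tests were chosen with earlier results of these data known. Alternatives were another zero point, scale, window, average, state and position, the mean undone, and clusters left out; comparisons within an arm, those without the high entry of cluster 4 and the count of signs from the genome median were chosen after seeing the data. Simulated data with flat levels and independent noise served to check the cluster means, the undoing of the trailing mean and the noise of a bin before averaging. Flanks, edges and the count of 1 separate value per 3 bins were not checked in this way. Computations used Python 3.11.15 with pandas 2.3.3 and numpy 2.4.6, and figures matplotlib 3.10.9.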

Additional observations from a re-analysis of the deposited data

Results flagged for a closer look

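Clusters 5, 6 and 7 on the long arm lay under 0 in LNCaP but over 0 in VCaP, each mean lying beyond 2 noise SD. The VCaP minus LNCaP difference was 0.83 in cluster 5, 0.42 in cluster 6 and 0.68 in cluster 7. With 1 library pair per line these differences were not tested. Measured from the genome median, VCaP had 0.07 in cluster 5 (noise SD 0.09) and 0.09 in cluster 6 (noise SD 0.06), both within 2 noise SD, so that only cluster 7 (0.39 in VCaP, -0.16 in LNCaP) kept opposite signs beyond it.

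As a set, the clusters lay above the rest of chromosome 19 in LNCaP (by 0.22) and below it in VCaP (-0.29), so that the contrast of cluster and rest differed by -0.51 between the lines. This was not tested either. Without cluster 3 the LNCaP contrast was 0.015 with both arms pooled, and within the long arm, which holds no bin of cluster 3, it was 0.12 (noise SD 0.02). The long arm medians in LNCaP were nearly equal, at -0.117 in the clusters and -0.126 in the rest.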

How the results depend on the processing

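Of 306 values under alternative settings, covering 78 results, 284 stayed within the noise SD of a bin (for shares, within the 95% Wilson interval) with the same sign where the value lay beyond noise. This tolerance is wider than the noise SD of a cluster mean. The 98 alternatives of the cluster levels were among these, yet measured from the genome median the VCaP levels of clusters 2, 5 and 6 fell to 0.09, 0.07 and 0.09, within 2 noise SD of 0. The 30 of the flank comparison were also among them, although the LNCaP excess of cluster 4 over its flanks fell within 2 noise SD without the high entry.

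The zero point moved the difference between the lines most. Measured from the median of the rest of chromosome 19, it was -0.65 in cluster 1, -0.66 in cluster 2, -0.82 in cluster 3 and 0.084 in cluster 5, and it turned negative in cluster 4 (-0.36), cluster 6 (-0.32) and cluster 7 (-0.068). This follows from the construction, as that median is 0.01 in LNCaP and 0.76 in VCaP. Quantile normalization gave -0.27 in cluster 3 and 0.24 to 0.78 in clusters 4 to 7.

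Calling bins over 0 associated gave shares of 51.2% in cluster 4, 15% in cluster 6 and 25.9% in cluster 7 in LNCaP and 100% in cluster 5 in VCaP. Over the genome median they were 46.5%, 12.5% and 17.2% in these LNCaP clusters, and 65.2%, 72.2% and 90.7% in clusters 2, 3 and 4 of VCaP. The LNCaP contrast of means with the rest of the chromosome was 0.015 without cluster 3 with both arms pooled, and 0.25 and 0.12 within the short and the long arm. With 10 bins on each side of an edge, the step was -0.46 at the end of cluster 3 and 0.26 at the start of cluster 4 in LNCaP, and -0.34 at the start of cluster 4 in VCaP. Moving values 1 bin upstream gave -0.55 at the end of cluster 6 in VCaP. Where no construction is named, the cause was not tested. No paired analysis was possible because a single library stands for each group. Counting error was not estimated, as read depth is unknown.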
